A study of Drosophila melanogaster with 3 samples.

Results

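The 8 Hox genes of *Drosophila melanogaster* were examined in whole male larvae of the 3rd instar, in 1 RNA-seq library for each of 3 genotypes. They were taken by name from a table of 15185 gene entries, in which each of the 8 had a single entry of its own and none was joined with another gene. Wild type was the strain Canton S. *mxcmbn1* is a recessive lethal allele of *multi sex combs* (*mxc*) with tumours of the lymph gland, the blood-forming organ of the larva, and *mxcG43* is a hypomorphic allele of the same gene without tumours. The *mxcmbn1* larvae came from a stock that also carried *w1* and from which a duplication of *mxc*+ had been removed, and the *mxcG43* stock came from a stock centre, so strain background and allele cannot be told apart. *mxc* lies on the X chromosome and the mutant males were hemizygous. The paper describes the sequenced wild-type larvae as mature and the *mxcmbn1* larvae as matched to them in stage. Some *mxcmbn1* larvae stay longer in the 3rd instar than normal larvae, so that age within the instar and genotype cannot be told apart either. The labels give no number of larvae per library.

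Hox genes encode homeodomain transcription factors that give the segments of the body their identity from head to tail. In the fly they lie on chromosome arm 3R in a pair of clusters, the Antennapedia complex (*lab*, *pb*, *Dfd*, *Scr* and *Antp*) and the bithorax complex (*Ubx*, *abd-A* and *Abd-B*), in about the order of the body regions they act in. Polycomb group proteins keep them silent where they should be off and trithorax group proteins keep them active where they should be on. *mxc* is named for the extra sex combs of mutant males, a phenotype known from failures of Hox silencing, and *Scr* is the Hox gene that specifies the sex comb on the first leg.

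Levels are given in FPKM, a measure of reads corrected for the length of each gene and for sequencing depth, on which genes of unequal length can be compared. From entries of few reads the *mxcmbn1* library was 1.356 times and the *mxcG43* library 0.970 times as deep as wild type. The FPKM of 178 entries with a single annotated transcript and few reads placed the number of fragments behind the scaling, in units of 1e6, at a median of 11.3 in wild type, with 116 of the 178 within 2% of that value. The corresponding numbers were 10.9 in *mxcG43* and 15.3 in *mxcmbn1*. These values were used to estimate the reads behind each Hox level from the shortest and the longest annotated transcript. Intervals beside ratios of Hox genes are 95% Clopper-Pearson intervals on the smaller of these read numbers, which cover counting error only. Ratios of other genes, and those given for the make-up of the family, are printed without an interval unless one stands beside them. As each genotype had 1 library, the differences could not be set against replicate error and were not tested. The mutated gene, *mxc*, had an FPKM of 1.96 in wild type, 1.94 in *mxcG43* and 3.56 in *mxcmbn1*.

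In wild-type larvae the Hox genes were expressed at low to moderate levels, and the order followed the body axis only in part. *abd-A* was the highest, with an FPKM of 11.95, followed by *Antp* (5.47), *Abd-B* (5.07), *Ubx* (2.74), *Scr* (2.34), *Dfd* (0.662), *lab* (0.448) and *pb* (0.202). The highest level was 59.1 times the lowest. Neighbours in this order were separated beyond their counting intervals at 3 places only, between *abd-A* and *Antp* (ratio 2.18, 95% interval 1.84 to 2.59), between *Abd-B* and *Ubx* (1.85, 1.41 to 2.44) and between *Scr* and *Dfd* (3.53, 2.09 to 6.25). The levels of *Antp* and *Abd-B*, of *Ubx* and *Scr*, of *Dfd* and *lab*, and of *lab* and *pb* could not be ordered at this depth. *lab*, *pb* and *Dfd* lay at percentiles from 16.9 to 22.2 of all entries in wild type, and *abd-A* at percentile 63.2. In whole larvae, fewer cells of a type and less RNA per cell cannot be told apart.

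**Figure D1:**
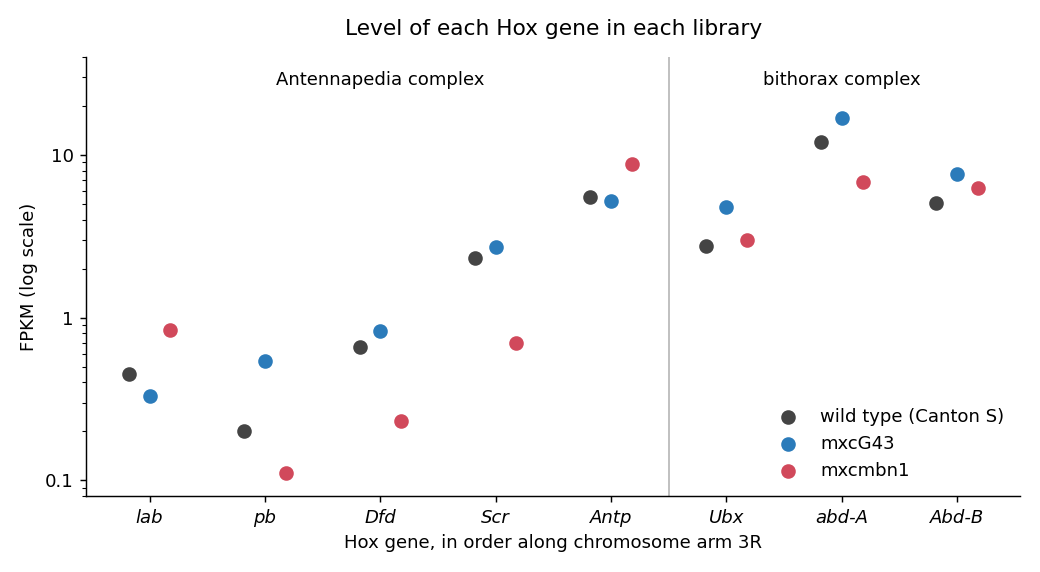
FPKM of each Hox gene (log scale) in the wild-type, *mxcG43* and *mxcmbn1* libraries, 1 point per library, with the genes in their order along chromosome arm 3R. *Scr* stood at 2.34 and 2.72 in wild type and *mxcG43* and at 0.696 in *mxcmbn1*, while *Antp* was highest in *mxcmbn1* at 8.80.

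The comparison of *mxcmbn1* with wild type asks how the tumour genotype differs from normal larvae. The head and first thoracic genes *Dfd* and *Scr* were lower by more than 2-fold, *abd-A* was lower by less than 2-fold, and *Antp* and *Abd-B* were higher beyond their counting intervals. No Hox gene was more than 2-fold higher. The 2 genes more than 2-fold lower are 25% of the 8, against 23.3% of the 12422 entries above 0 in both libraries and at 0.1 FPKM or more in the higher, and 15.6% of those entries were more than 2-fold higher. The number of Hox genes past 2-fold was therefore near the background of this pair of libraries, and the individual levels are described below without reading more from the count. The median log2 ratio was -0.34 over the 8 genes and -0.028 over all entries tested, and it was 0.12 over the 5 Hox genes with a mean of at least 1 FPKM over the 3 libraries, so that the sign of the median depended on the 3 genes below that mean.

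*Scr*, which specifies the labial and first thoracic segments, had the largest difference of the family between *mxcmbn1* and wild type. Its FPKM was 2.34 in wild type, 2.72 in *mxcG43* and 0.696 in *mxcmbn1*. The *mxcmbn1* library was thus well below both others, which lay close together. Between 63 and 104 reads stood behind the wild-type level, 71 to 117 behind that of *mxcG43* and 25 to 42 behind that of *mxcmbn1*. The ratio of *mxcmbn1* to wild type was 0.298 (95% interval 0.176 to 0.472), and 16.5% of all entries tested had a ratio as low or lower. With a pseudocount of 1 FPKM the ratio was 0.508, just short of 2-fold. *Scr* (XLOC_010924) has its locus on 3R from 2648842 to 2675703 in BDGP5, and no other entry of the table overlaps it.

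*Dfd*, a gene of the maxillary and mandibular segments of the head, showed the same order of libraries at a lower level. Its FPKM was 0.662 in wild type, 0.827 in *mxcG43* and 0.231 in *mxcmbn1*. *Dfd* has a single annotated transcript, of 2739 bases, and its levels corresponded to 19, 23 and 9 reads. The ratio of *mxcmbn1* to wild type was 0.349 (95% interval 0.139 to 0.810), and the wild-type and *mxcG43* levels were not separated (ratio 1.25, 0.650 to 2.42). The locus of *Dfd* (XLOC_009131) runs from 2617558 to 2628153 on 3R, and *Dfd* is the only one of the 8 annotated on the plus strand.

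*pb*, which acts in the mouthparts, rested on few reads. Its FPKM was 0.202 in wild type, 0.545 in *mxcG43* and 0.112 in *mxcmbn1*, or 8, 21 and 6 reads. It was the one Hox gene past 2-fold in *mxcG43*, where it stood highest. The difference between *mxcmbn1* and wild type was within counting error (ratio 0.553, 95% interval 0.158 to 1.82). *pb* (XLOC_010912) lies from 2533518 to 2567785 on 3R.

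*lab*, the most anterior gene of the complex and also a gene of the copper cells of the midgut, went the other way in *mxcmbn1*. Its FPKM was 0.448 in wild type, 0.330 in *mxcG43* and 0.837 in *mxcmbn1*. The reads behind these levels were only 7 to 13, 5 to 9 and 18 to 33. The ratio of *mxcmbn1* to wild type was 1.87 with a 95% interval of 0.756 to 5.37, and neither of the other ratios of *lab* had an interval that left out 1. *lab* (XLOC_010906) lies from 2487149 to 2504312 on 3R. Over 6 genes of transcription factors of the midgut, none was past 2-fold in *mxcmbn1*, with a median log2 ratio of -0.21. They ranged from *Ptx1*, a homeobox gene, at 0.698 times wild type to *GATAe*, a GATA factor of the gut, at 1.45 times.

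*Antp*, the gene of the second thoracic segment, was the only Hox gene whose level was higher in *mxcmbn1* than in both other libraries beyond counting error. Its FPKM was 5.47 in wild type, 5.17 in *mxcG43* and 8.80 in *mxcmbn1*. Wild type and *mxcG43* were not separated (ratio of *mxcG43* to wild type 0.945, 95% interval 0.764 to 1.17) and *mxcmbn1* stood above both. At least 190, 174 and 413 reads were behind these levels. The ratio of *mxcmbn1* to wild type was 1.61 (1.35 to 1.91), and 22.9% of all entries tested had a ratio as high or higher. The locus of *Antp* (XLOC_010925; 3R, 2721975 to 2824950) is shared with the entry *CG43252*, annotated as a non-coding RNA gene, whose FPKM was 2.11, 1.76 and 0. When up to 24.7 wild-type reads of *CG43252*, estimated from a gene length of 1241 bases, were joined to *Antp*, the ratio of *mxcmbn1* to wild type was 1.42.

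*Antp* is also known as a marker of the posterior signalling centre, the niche of the larval lymph gland. Listed genes of blood cells had higher FPKM in the *mxcmbn1* library. All 10 haemocyte genes of a list were higher in *mxcmbn1* than in wild type, 9 of them more than 2-fold against 15.6% of all entries, with a summed FPKM of 225 in wild type, 231 in *mxcG43* and 1341 in *mxcmbn1*. Of the defining markers, *Hml*, a clotting protein of plasmatocytes, had 11.3, 9.98 and 100.2 FPKM, *nimC1*, a phagocytosis receptor, 3.28, 10.5 and 112, *He* 46.0, 34.0 and 398, and *Pxn*, peroxidasin, 13.3, 11.6 and 78.0, and no gene of the list was at 0. *kn*, which encodes the factor Collier of the same niche and is on the list of Hox targets, had 0.956, 1.503 and 13.5 FPKM. The part of blood cells in the level of *Antp* was not tested.

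In the bithorax complex, *abd-A* was the gene that was lower in *mxcmbn1*. *abd-A* acts in the abdominal segments and in postembryonic neuroblasts. Its FPKM was 11.95 in wild type, 16.8 in *mxcG43* and 6.84 in *mxcmbn1*, with at least 502, 685 and 389 reads. All 3 libraries were separated beyond counting error, with *mxcG43* the highest and *mxcmbn1* the lowest. The ratio of *mxcmbn1* to wild type was 0.572 (95% interval 0.499 to 0.654), and 26.4% of all entries tested were as low or lower. Its entry (XLOC_011591) covers 3R from 12632936 to 12655767.

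*Ubx*, the gene of the third thoracic and first abdominal segments, had an FPKM of 2.74 in wild type, 4.75 in *mxcG43* and 2.98 in *mxcmbn1*. Wild type and *mxcmbn1* were not separated (ratio 1.09, 95% interval 0.812 to 1.46), and *mxcG43* stood above both. *Abd-B*, the gene of the last abdominal segments and the genitalia, had 5.07, 7.62 and 6.28 FPKM in the same order. The ratio of *mxcmbn1* to wild type was 1.24 (1.02 to 1.52), close to the edge of counting error. *Ubx* (XLOC_011586) lies from 12482345 to 12560348 and *Abd-B* (XLOC_011594) from 12752932 to 12797958 on 3R. *Abd-B* has 10 annotated transcripts of 3078 to 8184 bases, so that a change in their mix would also move its estimated reads.

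**Figure D2:**
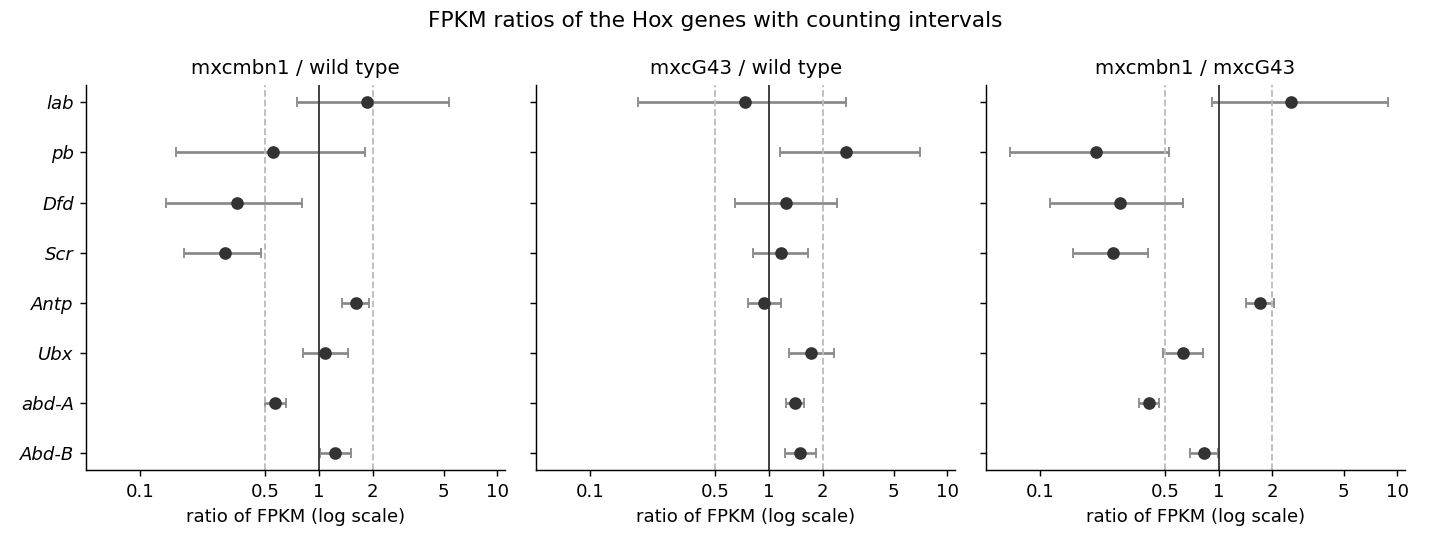
Ratio of FPKM (log scale) of each Hox gene in the 3 comparisons. Points are ratios, bars are 95% Clopper-Pearson intervals on estimated reads, which cover counting error only, and dashed lines mark 2-fold. In *mxcmbn1* against wild type *Dfd* and *Scr* lie below the lower dashed line, and in *mxcG43* against wild type only *pb* lies above the upper one.

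The comparison of *mxcG43* with wild type shows the same gene mutated without tumours. Here 6 of the 8 Hox genes were higher and 2 were lower, with a median log2 ratio of 0.41 against -0.035 over all entries. Only *pb* passed 2-fold, at 2.70 times (95% interval 1.15 to 7.07), and no Hox gene was more than 2-fold lower. That is 12.5% of the family, against 7.89% of 12854 entries more than 2-fold higher and 6.57% more than 2-fold lower. The 3 bithorax genes were each higher by less than 2-fold, *Ubx* at 1.73 times (1.30 to 2.31), *Abd-B* at 1.504 times (1.23 to 1.84) and *abd-A* at 1.41 times (1.25 to 1.58). Of all entries tested, 10.2%, 14.5% and 17.4% had ratios as high or higher than these. *Scr* (1.16, 0.816 to 1.66), *Dfd*, *Antp* and *lab* had intervals that covered 1.

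Between the mutants, the Hox genes were on the whole lower in *mxcmbn1*. Relative to *mxcG43*, *pb* was at 0.205 times (95% interval 0.0675 to 0.523), *Scr* at 0.256 times (0.153 to 0.402), *Dfd* at 0.280 times (0.114 to 0.628) and *abd-A* at 0.407 times (0.358 to 0.461). These 4 genes are 50% of the family, against 23.9% of 12482 entries more than 2-fold lower. *Ubx* stood at 0.629 times (0.488 to 0.813) and *Abd-B* at 0.824 times (0.692 to 0.986). *Antp* was higher at 1.70 times (1.42 to 2.04), and *lab*, at 2.54 times, was the 1 gene past 2-fold upwards, against 14.4% of entries, but its interval of 0.921 to 8.87 covered 1. The median log2 ratio was -0.98 over the 8 genes and -0.025 over all entries. The comparison shares a library with each of the other comparisons and is not independent of them.

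The make-up of the family does not depend on the scaling of the libraries, since each gene is set against the others of the same library. The summed FPKM of the 8 genes was 28.9 in wild type, 38.8 in *mxcG43* and 26.8 in *mxcmbn1*. *abd-A* made up 41.4% of the sum in wild type, 43.3% in *mxcG43* and 25.5% in *mxcmbn1*. *Antp* made up 18.9%, 13.3% and 32.9%, and in *mxcmbn1* it was the highest Hox gene, at 1.29 times *abd-A* (95% interval 1.12 to 1.48). In wild type *Antp* was at 0.458 times and in *mxcG43* at 0.308 times the level of *abd-A*. *Scr* was at 0.427 times the level of *Antp* in wild type, 0.526 times in *mxcG43* and 0.0791 times in *mxcmbn1*. *lab*, *pb*, *Dfd* and *Scr* together had 3.65, 4.42 and 1.88 FPKM, and the Antennapedia complex as a whole held 31.6%, 24.8% and 39.9% of the Hox sum. Its larger share in *mxcmbn1* was made up by *Antp*.

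**Figure D3:**
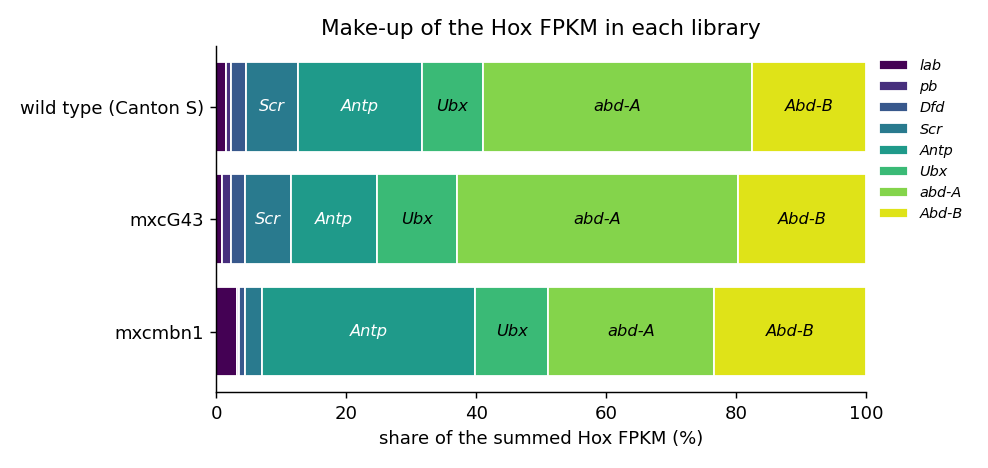
Share of the summed FPKM of the 8 Hox genes (percent) held by each gene in each library. *Antp* widens from 18.9% in wild type and 13.3% in *mxcG43* to 32.9% in *mxcmbn1*, while *abd-A* narrows from 41.4% and 43.3% to 25.5%.

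Hox proteins bind DNA together with the TALE homeodomain cofactors Exd and Hth. *exd*, which encodes Extradenticle, was at nearly the same level in every library, with 62.2 FPKM in wild type, 59.8 in *mxcG43* and 58.3 in *mxcmbn1*. *hth*, which encodes Homothorax, the factor that brings Extradenticle into the nucleus, had 54.3, 46.8 and 23.3 FPKM, and was at 0.429 times the wild-type level in *mxcmbn1*. Both were higher than every Hox gene in each library.

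The shares of all entries past 2-fold were 15.6% higher and 23.3% lower in *mxcmbn1*, and 7.89% higher and 6.57% lower in *mxcG43*, and the counts of the lists that follow stand against these. Of 20 Polycomb group entries none was more than 2-fold higher in *mxcmbn1* and 1 was more than 2-fold lower, with a median log2 ratio of 0.26, and in *mxcG43* none passed 2-fold either way, with a median of -0.028. *Psc*, a subunit of Polycomb repressive complex 1, was highest relative to wild type in *mxcmbn1* at 1.95 times (1.51, 1.90 and 2.94 FPKM in wild type, *mxcG43* and *mxcmbn1*). The 1 lower gene was *jing*, which encodes a zinc-finger protein, with 5.61, 9.40 and 2.02 FPKM. Of 15 trithorax group entries 2 were more than 2-fold higher in *mxcmbn1*, *ash2*, a subunit of histone methyltransferase complexes, at 2.56 times (12.3 to 31.6 FPKM) and *kto*, a subunit of the Mediator kinase module, at 2.27 times, and none was more than 2-fold lower. The median of this list was 0.17 in *mxcmbn1* and 0.11 in *mxcG43*.

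Of 20 genes known as targets of Hox proteins from work in embryos and discs, 5 were more than 2-fold higher and 5 more than 2-fold lower in *mxcmbn1*, with a median log2 ratio of -0.10, and the lower count was near the 23.3% of all entries. In *mxcG43* 3 were higher and none lower, with a median of 0.32. Over the 17 targets with a mean of at least 1 FPKM over the 3 libraries the counts were 4 higher and 4 lower in *mxcmbn1*, against 14.4% and 22.7% of all such entries, and 2 higher and none lower in *mxcG43*. *kn* was at 14.2 times wild type in *mxcmbn1*. *Dll*, the limb gene that *Ubx* and *abd-A* repress in the abdomen, had 6.25, 6.74 and 1.45 FPKM, at 0.233 times wild type in *mxcmbn1*. Among the targets that reached 1 FPKM in the higher library, *ems*, a homeobox gene of the head, had the highest ratio in *mxcG43*, at 2.22 times (1.01, 2.25 and 0.574 FPKM), and *sca*, which acts in the formation of sensory organs, the lowest, at 0.844 times.

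Imaginal discs, the larval tissues that form the adult head, thorax and genitalia, are a main site of Hox expression, and the *mxcmbn1* mutant is described with reduced discs. Of 26 disc genes 22 were lower in *mxcmbn1* than in wild type and 4 were higher, and 10 were more than 2-fold lower and none more than 2-fold higher, against the 23.3% and 15.6% of all entries given above. The summed FPKM of the list was 104 in wild type, 114 in *mxcG43* and 80.2 in *mxcmbn1*, with no gene at 0. The median log2 ratio was -0.82 in *mxcmbn1* and 0.20 in *mxcG43*. The lowest ratio in *mxcmbn1* was that of *eya*, a gene of eye formation (2.89, 1.53 and 0.667 FPKM), and the highest that of *dpp*, a BMP ligand (1.55, 2.06 and 2.33 FPKM). *Dll*, *dpp*, *vg* and further disc genes also stand among the Hox targets. Some of the other lists share genes as well, so the counts of the lists are not independent. The defining markers differed among themselves, since *Dll* was at 0.233 times, *ap*, a selector gene of the dorsal wing, at 0.903 times, *vg*, the wing selector, at 1.42 times and *nub* at 1.46 times wild type. In *mxcG43*, *Doc1*, a T-box gene, was the highest at 3.27 times and *eya* the lowest at 0.531 times. The part of disc tissue in the levels of *Dfd*, *Scr* and *abd-A* was not tested.

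Of 16 homeobox genes of embryonic patterning outside the complexes, 11 could be compared between *mxcmbn1* and wild type under the minimum of 0.1 FPKM. Of these, 7 were more than 2-fold lower and none higher, against 23.3% and 15.6% of all entries, with a median log2 ratio of -1.21. In *mxcG43* 6 of 14 were more than 2-fold higher and none lower, against 7.89% and 6.57%, with a median of 0.76. Many of these genes were at low levels, and 8 of the 16 had a mean of at least 1 FPKM over the 3 libraries. Of these 8, 4 were more than 2-fold lower and none more than 2-fold higher in *mxcmbn1*, against 22.7% and 14.4% of all entries with such a mean, with a median log2 ratio of -0.99. In *mxcG43* 2 were more than 2-fold higher and none lower, against 5.21% and 5.50%, with a median of 0.39. *oc*, a homeobox gene of the anterior head, had 1.13, 1.51 and 0.385 FPKM, *vnd*, a gene of the ventral neuroectoderm, 1.11, 0.634 and 1.93, and *lbl*, a gene of muscle precursors, 2.38, 5.43 and 1.01. *tin* and *bap*, homeobox genes of the mesoderm, were below 0.3 FPKM in every library.

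The nervous system is the other main site of Hox expression in the larva. Of 19 neuronal and glial entries 14 were lower and 5 higher in *mxcmbn1*, with a median log2 ratio of -0.51 against -0.028 over all entries tested. Past 2-fold, 3 were lower and 2 higher, against 23.3% and 15.6% of all entries. Of the 15 entries with a mean of at least 1 FPKM over the 3 libraries, 1 was lower and 2 higher past 2-fold. The shares of all such entries were 22.7% and 14.4%, and the median log2 ratio of the 15 was -0.34. Counts this small were not read further. The summed FPKM of the 19 entries was 126, 116 and 156. It was highest in *mxcmbn1* although most entries were lower there than in wild type, and its rise came from the 5 higher entries. Some entries of the list are joined with another gene. *pros*, a homeobox gene of dividing neural precursors, had 5.46, 8.35 and 1.63 FPKM, the lowest ratio of the list at 0.299, and *nrv3*, a subunit of the sodium pump, the highest at 2.35. *elav*, the pan-neuronal marker, had 7.88, 7.42 and 4.23 FPKM, *Syt1* 21.9, 20.6 and 19.7, *brp* 0.858, 1.27 and 0.567, and *repo*, the glial marker, 0.729, 1.57 and 1.36. No entry of the list was at 0. The part of neural tissue in the Hox levels was not tested.

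*Abd-B* and *abd-A* are also expressed in the gonad. Of 7 genes of the somatic gonad 2 were more than 2-fold higher and 3 more than 2-fold lower in *mxcmbn1*, against 15.6% and 23.3% of all entries, with a median log2 ratio of -0.70 and a summed FPKM of 44.0, 56.3 and 58.8. With the germline gene *bam*, which the list also held, the summed FPKM was 71.6, 68.8 and 65.0, in the opposite order, and 4 were more than 2-fold lower. The markers *tj* and *zfh1* had 0.108, 0.777 and 0.258 FPKM and 4.95, 5.31 and 34.0 FPKM, and *bam* had 27.7, 12.5 and 6.20. *zfh1* is also expressed in blood cells. The higher sum of the 7 genes in *mxcmbn1* than in wild type came from *zfh1*. All genes of the list other than *tj* and *zfh1* were lower there than in wild type. The part of the gonad in the levels of *Abd-B* and *abd-A* was not tested.

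**Figure D4:**
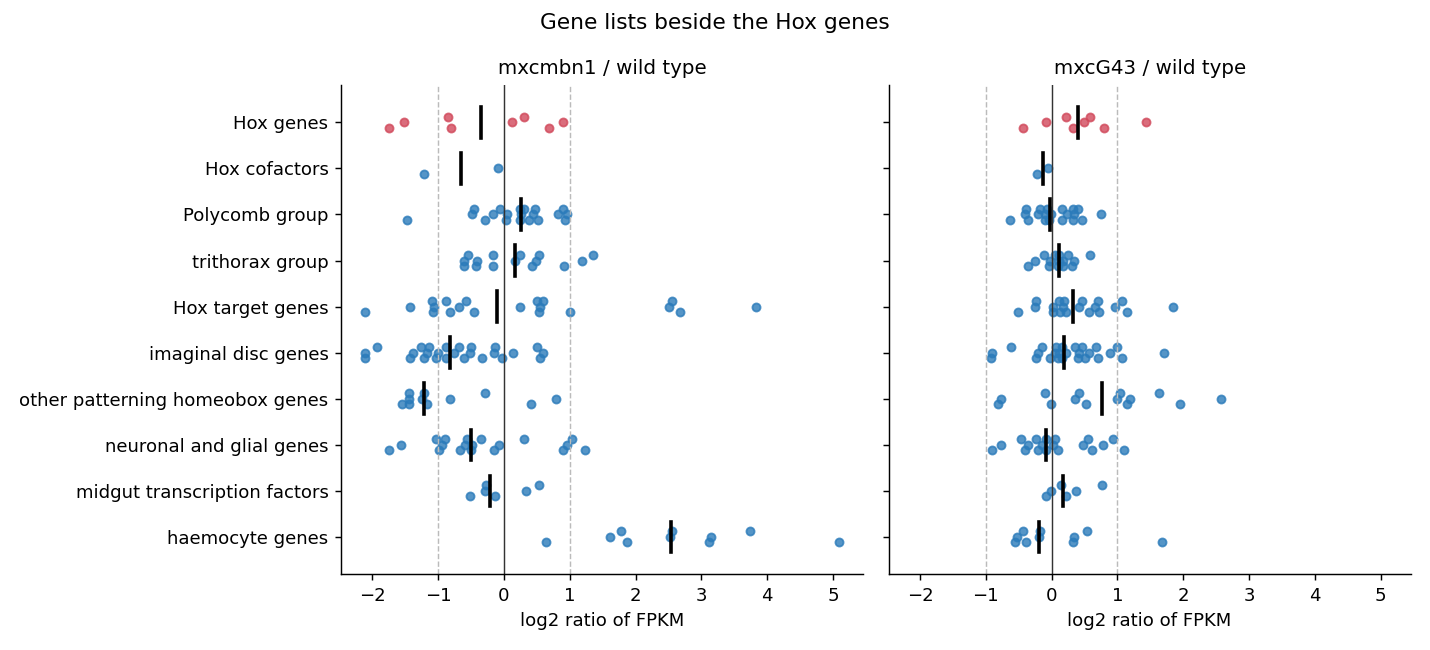
Log2 ratio of FPKM to wild type for each gene of the Hox family (red) and of other lists (blue), in *mxcmbn1* and in *mxcG43*, for entries above 0 in both libraries and at 0.1 FPKM or more in the higher. Black bars are list medians and dashed lines mark 2-fold. The haemocyte median lies at 2.54 in *mxcmbn1* and at -0.19 in *mxcG43*, and the disc median at -0.82 and 0.20.

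The complexes also hold genes that are not Hox genes, and these differed between the libraries in both directions. In the Antennapedia complex, 338 kb from *lab* to *Antp*, the table has 27 other entries, of which 10 were at 0 in every library and 12 reached 1 FPKM in some library. The other homeobox genes of this complex, *bcd*, *zen*, *zen2* and *ftz*, which act in the early embryo, were all under 0.2 FPKM in every library. *Ama*, which encodes an immunoglobulin-domain protein and lies between *pb* and *Dfd*, had 46.6, 90.8 and 84.8 FPKM. *CG42651*, which lies between *Dfd* and *Scr*, had 1.19, 4.92 and 7.04 FPKM. Both were higher in *mxcmbn1* than in wild type, while *Dfd*, which lies between them, was lower.

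Other entries of the complex were low in *mxcmbn1*. The non-coding RNA *pncr002:3R*, between *lab* and *pb*, had 164, 190.5 and 45.0 FPKM. The copies *7SLRNA:CR42652* and *7SLRNA:CR32864* have the same FPKM in each library (142, 79.4 and 27.7), and reads of such near-identical genes cannot be told apart. The overlapping non-coding entries *CR42721* and *CR43435* had 0.320, 1.11 and 0.0394 FPKM and 0.140, 1.15 and 0 FPKM, highest in *mxcG43*. Of the cuticle protein genes next to *pb*, *Ccp84Ab* had 0.463, 5.06 and 0.876 FPKM and *Ccp84Aa* 0.824, 5.26 and 0.474, and both were highest in *mxcG43*, as was *pb*. *Ccp84Ad* (1.10, 1.49 and 1.06) and *Ccp84Ag* (0.693, 0.613 and 1.24) varied less.

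In the bithorax complex, 316 kb from *Ubx* to *Abd-B*, there were 9 other entries, 2 of them at 0 in every library and 3 reaching 1 FPKM. *CG31275*, an entry that overlaps the *bxd* region between *Ubx* and *abd-A*, had 17.7 FPKM in wild type, 8.90 in *mxcG43* and 0.145 in *mxcmbn1*. *Glut3*, which encodes a sugar transporter, is next to *abd-A* and had 4.57, 6.23 and 0.0865 FPKM. *CG31275* was at 0.00820 times and *Glut3* at 0.0189 times the wild-type level in *mxcmbn1*, whereas *Ubx* was at 1.09 times and *abd-A* at 0.572 times. Deep falls in *mxcmbn1* were not particular to this complex. The paper reports many genes under a very low limit of the control level, most with their peak expression in pupal and adult males or in adult testes. By the ratios above, *CG31275* was under that limit and *Glut3* was not. The part of male tissue in the levels of *CG31275* and *Glut3* was not tested. *msa*, a non-coding RNA between *abd-A* and *Abd-B*, had 1.27, 1.97 and 0.767 FPKM, in the same order of libraries as *abd-A*. The regulatory RNAs *bxd* and *iab-4* were below 0.2 FPKM in every library. The library kit kept the strand, but the alignment and counting are given as run at default parameters, under which reads of a gene and of an antisense partner cannot be told apart.

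**Figure D5:**
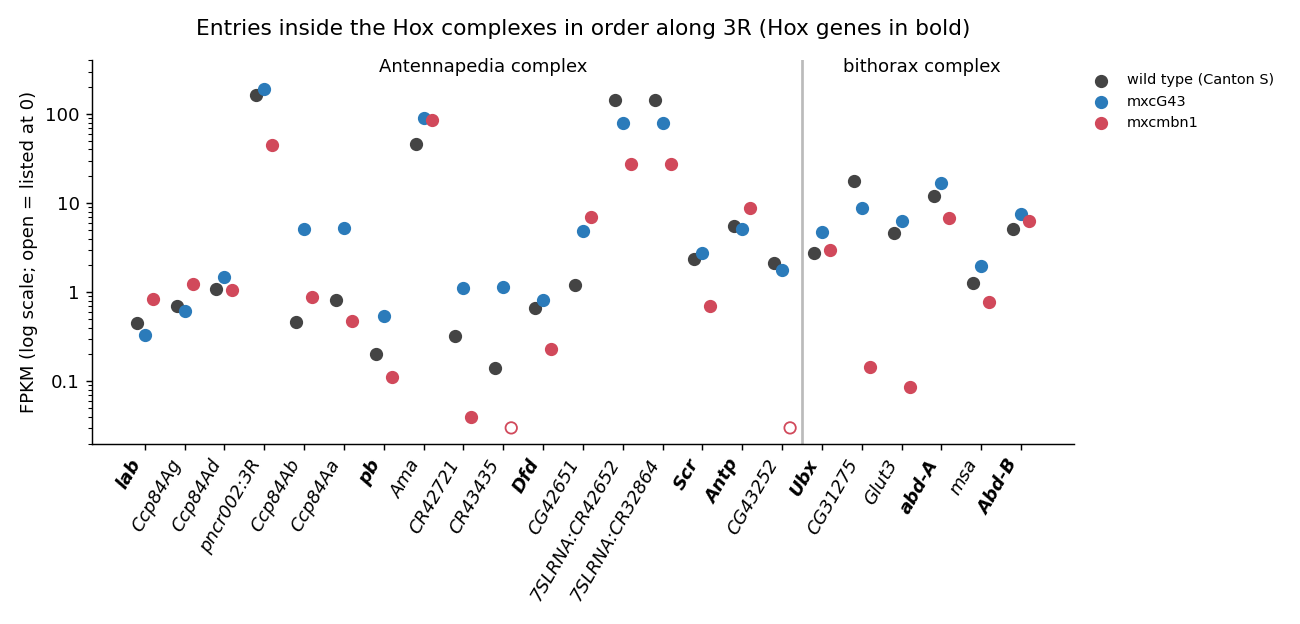
FPKM (log scale) of the Hox genes (bold) and of the other entries that reached 1 FPKM in some library, in their order along 3R, with 1 point per library. Open circles are entries listed at 0. *CG31275* and *Glut3* stand at 0.145 and 0.0865 in *mxcmbn1* between *Ubx* and *abd-A*, which stand at 2.98 and 6.84.

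Among 9201 other entries with at least 1 FPKM in every library, those whose ratios to wild type in both mutants were nearest to those of *Scr*, the Hox gene with the largest difference between *mxcmbn1* and wild type, were *m4*, *CG14356* and *CG31100*. The measure was the distance between the pairs of log2 ratios over 3 libraries. *m4*, a small gene of the *Enhancer of split* complex that responds to Notch, lay at a distance of 0.019 with 8.36, 9.83 and 2.47 FPKM. *CG14356* (3.97, 4.77 and 1.22) lay at 0.065 and *CG31100* (26.7, 32.7 and 8.21) at 0.083, and 6 entries in all lay within 0.1. With so few libraries such likeness is a description only.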

How the data were processed

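mRNA-seq gave 1 library for each of wild type (Canton S), *mxcG43* and *mxcmbn1*, sequenced as 51 bp single-end reads. The authors checked reads with FastQC 0.11.5, aligned filtered reads to BDGP5 with TopHat 2.0.6 and obtained FPKM with Cufflinks at default parameters, and the deposited table holds FPKM for 15185 entries without counts. The gene annotation used is not given in the sources used here. Deposited loci start from 0 and are given here from 1. Transcript lengths, strands and RNA classes were taken from the BDGP6 annotation, in which all 8 Hox genes were matched, and RefSeq (Release 6) for *CG43252*. No coordinate of these was used.

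Ratios are plain ratios of FPKM among entries above 0 in both libraries and at 0.1 or more in the higher. Relative depth was the value at which most entries under 0.5 FPKM lay on ratios of up to 8 whole reads (relative tolerance 0.0002; 323 of 632 entries for *mxcmbn1* to wild type). Reads were then estimated from transcript length less a fragment length of 200 ± 80 bases, calibrated on single-transcript entries of 500 to 3000 bases. Counting intervals cover counting error only. The search for relative depth, the calls past 2-fold and the coverage of the intervals at known read numbers were tested on simulated data. The estimate of reads from transcript length was not. The 8 genes and the lists were chosen with earlier results of these data known. The genes named were the Hox genes, their cofactors, entries inside the complexes, the extremes of each list among genes of at least 1 FPKM in the higher library, the defining markers, the nearest patterns and *mxc*, and *kto*, *tin* and *bap* were chosen after their values were seen. Alternatives covered scaling, pseudocounts, the minimum FPKM and the fold. The software was matplotlib 3.10.9, scipy 1.17.1, pandas 2.3.3 and numpy 2.4.6 under Python 3.11.15.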

Additional observations from a re-analysis of the deposited data

How the results depend on the processing

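No Hox ratio changed direction when libraries were rescaled to the upper quartile or to the median ratio over entries, with pseudocounts of 0.1 and 1, or, for *Antp*, the joining of overlapping reads, an alternative chosen after seeing the data. Of these 99 alternative values 95 stayed within the counting interval of the ratio, and the 4 outside it came from a pseudocount of 1, at 0.508 for *Scr* in *mxcmbn1* to wild type and at 0.720, 0.674 and 0.456 for *pb*, *Dfd* and *Scr* in *mxcmbn1* to *mxcG43*. The median ratio was 1.07 for *mxcmbn1* to wild type, 0.963 for *mxcG43* to wild type and 1.10 between the mutants. The number of Hox genes past 2-fold rests on genes of low level. It was 2 for *mxcmbn1* to wild type, and became 1 with a minimum of 1 FPKM, 0 with a pseudocount of 1, 6 at 1.5-fold and 1 at 3-fold. It was 1 for *mxcG43* to wild type, and became 0 with the minimum of 1 FPKM, 0 with the pseudocount, 3 at 1.5-fold and 0 at 3-fold. It was 5 for *mxcmbn1* to *mxcG43*, and became 2 with the minimum of 1 FPKM, 2 with the pseudocount, 7 at 1.5-fold and 3 at 3-fold. Both rescalings left these counts as they were. The shares of all entries at these other settings are not given here. The counts therefore show only how far the number depends on the setting, and are not read as a result about the family. Depth limits *lab*, *pb* and *Dfd*, which rested on 33 or fewer reads in every library. Keeping list genes by their mean over the libraries, and leaving *bam* out of the gonad list, were chosen after seeing the data. No paired analysis was possible because each genotype has 1 library.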
